A study of Rattus norvegicus with 9 samples.

Results

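The genes described here carry the interferon signal inside a cell: the cytosolic RNA sensors Ddx58, Ifih1 and Dhx58, the interferon regulatory factors Irf1, Irf3, Irf7, Irf8 and Irf9, and the signal transducer Stat2. They are the 9 symbols, of 23479 in the deposited table, that match a list of interferon transcription factors and RNA sensors. All 9 were found, each under the listed symbol, and all 9 passed the filter on low counts. Poly(A) RNA from the livers of male rats of the outbred strain Wistar had been sequenced, with 5 animals aged 6 months (young 1 to 5) and 4 animals aged 24 months (old 1 to 4). No allele, treatment or agent is named for either group. By the numbers of animals in the design text each library is 1 animal, so the spread within a group is that between animals.

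RNA of viral origin in the cytosol is bound by RIG-I (the product of Ddx58) or MDA5 (Ifih1), while LGP2 (Dhx58) tunes their output. Signalling then reaches IRF3, which is present in most cells beforehand, and IRF7, which most cells make in quantity only after interferon has acted on them. Secreted interferon acts through the complex ISGF3, which holds STAT2 and IRF9 and binds the interferon-stimulated response element, and interferon gamma acts mainly through the gamma-activated site. IRF1 is induced mainly by interferon gamma, and IRF8 is made mainly in macrophages, dendritic cells and B cells.

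Promoters are shown because some of these genes are themselves interferon targets. RefSeq windows of the 250 bases before the gene start, on build GRCr8, were matched for 7 of the 9 genes; Ddx58 and Dhx58 had no entry. Each window was searched on both strands for GAAA, any 2 bases and GAAA again, the core of the interferon-stimulated response element, and for TTCNNNGAA, the gamma-activated site, which reads the same on both strands. The 4 windows below are those of Irf7 and Ifih1, which hold the first motif, and of Irf1 and Irf8, which hold the other; they were chosen for their motifs and not for a difference between the ages. They are written 5′ to 3′ on the gene strand with the matches in capitals.
Irf7 (chr1:205800024-205800273, minus strand): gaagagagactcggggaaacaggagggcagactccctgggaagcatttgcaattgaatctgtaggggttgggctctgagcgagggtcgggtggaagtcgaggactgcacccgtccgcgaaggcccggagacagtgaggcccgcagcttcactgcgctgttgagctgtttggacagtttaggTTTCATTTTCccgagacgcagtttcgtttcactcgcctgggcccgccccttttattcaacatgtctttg
Ifih1 (chr3:67683969-67684218, minus strand): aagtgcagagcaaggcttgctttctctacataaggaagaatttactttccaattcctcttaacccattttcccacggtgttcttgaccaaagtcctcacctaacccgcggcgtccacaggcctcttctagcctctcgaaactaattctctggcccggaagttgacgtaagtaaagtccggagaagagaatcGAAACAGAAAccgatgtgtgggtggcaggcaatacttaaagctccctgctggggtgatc
Irf1 (chr10:38417685-38417934, plus strand): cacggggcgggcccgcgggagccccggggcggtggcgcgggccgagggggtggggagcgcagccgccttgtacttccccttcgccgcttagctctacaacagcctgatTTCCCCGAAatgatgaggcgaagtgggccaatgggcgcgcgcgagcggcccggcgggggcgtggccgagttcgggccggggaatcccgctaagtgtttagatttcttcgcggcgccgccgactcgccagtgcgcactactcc
Irf8 (chr19:65699034-65699283, plus strand): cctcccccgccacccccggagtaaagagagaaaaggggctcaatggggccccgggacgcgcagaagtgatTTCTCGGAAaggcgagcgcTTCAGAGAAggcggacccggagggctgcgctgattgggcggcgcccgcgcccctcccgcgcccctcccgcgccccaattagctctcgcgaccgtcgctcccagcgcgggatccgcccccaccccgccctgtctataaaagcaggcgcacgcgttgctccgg

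The response element core was found in 2 of the 7 windows, those of Irf7 and Ifih1, and in 1140 of all 33469 windows (3.41%). The gamma-activated site was found in 3, those of Irf1, Irf8 and Irf9, and in 2566 of all windows (7.67%). Irf8 held it 2 times, no match overlapped another, and neither motif was found in the windows of Stat2 and Irf3. Among targets of ISGF3, a list given further on, 16 of the 25 genes with a window held the response element core (64%). Among targets of IRF1 and interferon gamma, also listed further on, 13 of 20 held it (65%), so it did not set the ISGF3 targets apart. These matches describe letters only and do not show that a factor binds there.

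Libraries held 18586798 to 32882704 counts, and each member had between 186 and 2633 counts in each library. Levels are given as CPM, the counts scaled to a common library size with TMM factors, and are not divided by gene length, so they are compared between animals and not between genes. Old 1 held no odd count (0 genes), where every other library held 8112 to 8350 of them. In young 2 to 5 the 14 heart muscle markers summed to 87.5 to 111 CPM, against 7.89 in young 1 and 0.575 to 4.02 in the old libraries, and what this did to other genes was not tested. Young 1 lay within the range of young 2 to 5 for 8 of the 9 members, and for Ifih1 it lay just above them. Old 3 stood apart in white cell markers: the 12 neutrophil and monocyte markers summed to 299 CPM there and to 52.1 to 66.6 CPM in the other 8 libraries. Cd14, a monocyte marker and most of the sum in those 8, went the other way and was lowest in old 3. Since old 3 stood apart, results that rest on it are given with and without it. Old 1 was lowest in Kupffer cell and macrophage markers. It was also lowest in the 8 endothelial cell markers, at 139 CPM against 205 to 305 CPM in the other libraries. These are whole-tissue samples, in which more cells of a type and more RNA per cell cannot be told apart.

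No member passed the test over all genes, and the members differed in how they lay between the ages. The inducible regulators Irf7 and Irf1 and the sensor Dhx58 were each higher in all 4 old livers than in all 5 young ones. Stat2, Irf3 and Ddx58 had slightly lower means in old livers, with overlapping ranges. Irf8, Irf9 and Ifih1 had higher means in old livers, again with overlap, and each was at its highest in old 3. By edgeR's quasi-likelihood test, 0 of 9 members had an adjusted p under 0.05, where 128 of the 12778 genes tested did (1.00%), 0.657% higher and 0.344% lower in old livers. At an unadjusted p under 0.05 there were 3 of 9, all higher in old livers, and 0 were lower. Of all genes 15.9% were under this p, 8.94% higher and 6.96% lower. DESeq2 called 1 of 9, Irf1, where it called 5.13% of all genes, and limma-voom called 0 of 9 and 0.532%. Irf7 had no p-value from DESeq2, so that tool could not call it. Ranges did not overlap, with old above young, for 3 of 9 members and for 3.40% of all genes; with old below young it was 0 members and 3.12% of all genes. The log2 fold change was above 0 for 6 of 9 members and for 51.2% of all genes. The median log2 fold change of the members was 0.32, against 0.0084 over all genes tested, and without old 3 it was 0.10.

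**Figure D1:**
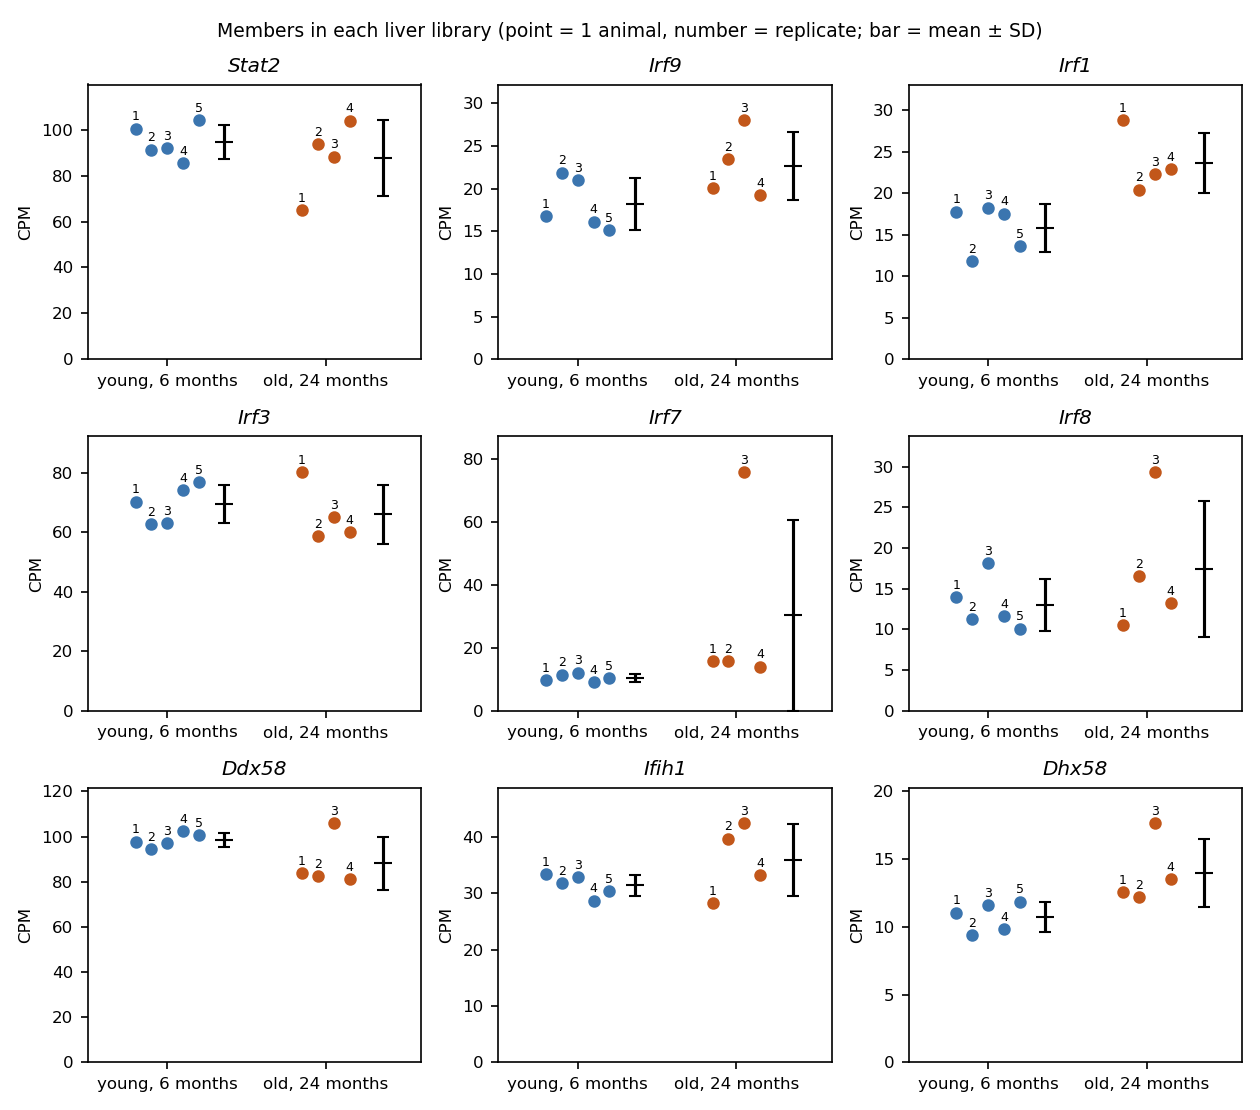
Level of each member in CPM (vertical axes, from 0) in the 5 young and 4 old liver libraries. Points are animals with their replicate number, and bars are the mean ± SD. Irf7 in old 3 lies at 76.0 CPM, and Irf1, Irf7 and Dhx58 show no overlap between the ages.

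Among the RNA sensors, Dhx58, which encodes the regulatory sensor LGP2, lay at 11.1, 9.39, 11.6, 9.82 and 11.8 CPM in young 1 to 5 and at 12.6, 12.2, 17.6 and 13.5 CPM in old 1 to 4. The groups did not overlap, although old 2, at 12.2, was close to young 5, at 11.8. The means were 10.7 ± 1.09 and 14.0 ± 2.50 CPM (SD, n = 5 and 4), and the log2 fold change was 0.38 ± 0.13 (SE; 95% interval 0.08 to 0.68; edgeR adjusted p = 0.209, unadjusted p = 0.0167). Without old 3 the log2 fold change was 0.25 (edgeR adjusted p = 0.309, unadjusted p = 0.0594).

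Ddx58, listed as Rig1 in RefSeq with Ddx58 as a synonym, encodes RIG-I, the sensor of RNA ends that carry a triphosphate. It lay at 97.7, 94.3, 97.1, 102 and 101 CPM in young 1 to 5 and at 83.7, 82.4, 106 and 81.0 CPM in old 1 to 4. Old 1, old 2 and old 4 were below every young animal, and old 3 was above every young animal. The log2 fold change was -0.16 ± 0.10 (SE; 95% interval -0.37 to 0.06; edgeR adjusted p = 0.457). Without old 3 it was -0.26 ± 0.08 (unadjusted p = 0.00935, edgeR adjusted p = 0.163). In RefSeq its span overlaps that of LOC120102855, so part of its counts could belong to that gene. Whether their exons overlap was not checked.

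Ifih1, the gene of MDA5, which senses long double-stranded RNA, lay at 33.4, 31.8, 32.8, 28.7 and 30.4 CPM in young 1 to 5 and at 28.2, 39.7, 42.4 and 33.2 CPM in old 1 to 4. Old 2 and old 3 were above all young animals, while old 1 was the lowest of the 9. Its log2 fold change of 0.19 ± 0.12 did not pass (95% interval -0.08 to 0.46; edgeR adjusted p = 0.466). It was 0.10 without old 3 and 0.29 without old 1 (edgeR adjusted p = 0.686 and 0.212).

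Counts of 1 gene relative to another in the same library need no scaling factor. Dhx58 had 11.3, 9.96, 11.95, 9.60 and 11.8 counts per 100 Ddx58 counts in young 1 to 5 and 15.01, 14.8, 16.6 and 16.7 in old 1 to 4. All old livers were above all young ones, old 3 among the others, with means of 10.9 ± 1.07 and 15.8 ± 1.02. Of all other genes tested, 5.92% had a ratio to Ddx58 that was higher in every old than in every young liver. This pair was chosen after the values were seen, so it is a description with no test. Ifih1 per 100 Ddx58 counts had means of 32.0 ± 2.73 and 40.7 ± 5.91, and old 1, at 33.7, overlapped with the young animals.

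Downstream of the sensors, Irf7, the inducible partner of Irf3, had the largest fold change among the members with all 9 libraries, though not without old 3, where that of Irf1 was larger. It lay at 9.68, 11.5, 12.2, 9.04 and 10.4 CPM in young 1 to 5 and at 15.7, 15.9, 76.0 and 14.1 CPM in old 1 to 4. All old livers were above all young ones, and old 3 was far above the other 8. The means were 10.6 ± 1.28 and 30.4 ± 30.4 CPM, and the fold change of 2.88 had a 95% interval from 1.32 to 6.28 (log2 1.52 ± 0.50; edgeR adjusted p = 0.19, unadjusted p = 0.0134). Without old 3 the log2 fold change was 0.53 ± 0.12, with a smaller adjusted p of 0.0863 by edgeR (unadjusted p = 0.00181). DESeq2 gave neither a p-value nor an adjusted p-value for Irf7 on all 9 libraries.

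Irf3, the factor that lies in the cytosol until a sensor is triggered, lay at 70.3, 62.6, 63.1, 74.1 and 76.7 CPM in young 1 to 5 and at 80.3, 58.8, 65.0 and 60.0 CPM in old 1 to 4. Old 1 was the highest of the 9 and old 2 the lowest, so the old range took in the young one. Its log2 fold change was -0.07 ± 0.11 (95% interval -0.32 to 0.18; edgeR adjusted p = 0.785), and -0.18 ± 0.09 without old 1. The library kit does not mark the strand, and in RefSeq the span of Irf3 overlaps that of Bcl2l12, so part of its counts could belong to that gene.

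Set against Irf3 in the same library, Irf7 had 13.8, 18.4, 19.3, 12.2 and 13.6 counts per 100 Irf3 counts in young 1 to 5. In old 1 to 4 it had 19.6, 27.0, 117 and 23.5. The groups did not overlap, but old 1 lay close to young 3, and 4.69% of all other genes tested stood in this way to Irf3. The log2 ratio was 1.19 higher in old livers (exact permutation test, two-sided, p = 0.00794, the smallest it can give with 5 and 4 libraries). Without old 3 the difference was 0.61 (exact permutation p = 0.0357). This test too was chosen with earlier results of these data known. Groups without overlap give it a p at or near the smallest possible, so it adds little to that lack of overlap. Irf1 had 17.8 to 28.9 counts per 100 Irf3 counts in young and 34.3 to 38.2 in old livers, a gap that was not tested.

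**Figure D2:**
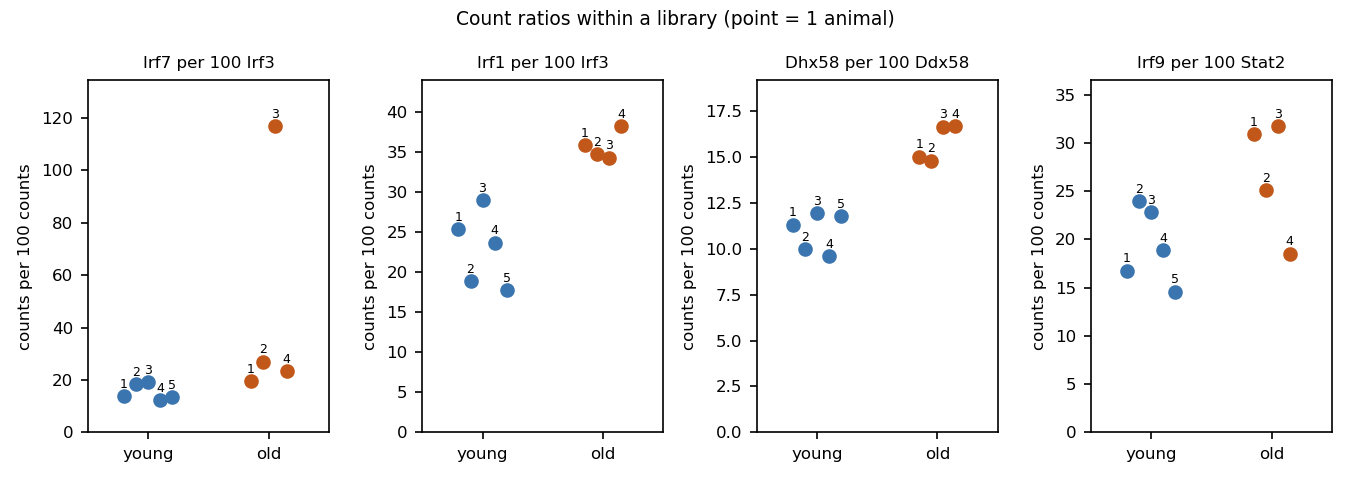
Counts of one member per 100 counts of another in the same library (vertical axes, from 0) for the 5 young and 4 old livers; points are animals with their replicate number. The ages do not overlap for Irf7 and Irf1 against Irf3 and for Dhx58 against Ddx58, while Irf9 against Stat2 overlaps through old 4 at 18.5.

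The complex that answers interferon, ISGF3, holds Stat2 and Irf9, and these lay differently between the ages. Stat2 lay at 100.4, 91.2, 91.9, 85.3 and 104 CPM in young 1 to 5 and at 65.0, 93.6, 88.2 and 104 CPM in old 1 to 4. Old 1 lay below the young range, and the other old livers lay inside it. The log2 fold change was -0.11 ± 0.13 (95% interval -0.40 to 0.18; edgeR adjusted p = 0.71), and it was 0.010 without old 1.

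Irf9, the DNA-binding subunit of ISGF3, lay at 16.8, 21.9, 21.0, 16.1 and 15.2 CPM in young 1 to 5 and at 20.1, 23.5, 28.0 and 19.3 CPM in old 1 to 4. Old 2 and old 3 were above all young animals, and old 1 and old 4 lay inside the young range. Its log2 fold change was 0.32 ± 0.15 (95% interval -0.01 to 0.65; edgeR adjusted p = 0.339), and 0.20 without old 3. Irf9 counts per 100 Stat2 counts had means of 19.4 ± 3.98 and 26.6 ± 6.14.

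Irf1, an activator of antigen presentation genes, lay at 17.8, 11.8, 18.3, 17.5 and 13.6 CPM in young 1 to 5 and at 28.8, 20.4, 22.3 and 22.9 CPM in old 1 to 4. All old livers were above all young ones, with old 1 the highest and old 3 among the others. The means were 15.8 ± 2.89 and 23.6 ± 3.61 CPM, a fold of 1.49 with a 95% interval from 1.18 to 1.89 (log2 0.58 ± 0.15; edgeR adjusted p = 0.11, unadjusted p = 0.0034). DESeq2 gave an adjusted p of 0.0209. The edgeR estimate was 0.61 without old 3 and 0.47 without old 1.

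Irf8 lay at 14.0, 11.2, 18.1, 11.6 and 10.1 CPM in young 1 to 5 and at 10.5, 16.5, 29.4 and 13.2 CPM in old 1 to 4. Only old 3 was above the young range. The log2 fold change was 0.42 ± 0.29 (95% interval -0.22 to 1.06; edgeR adjusted p = 0.502), and without old 3 it was 0.04 ± 0.21. Without old 1 it was 0.60 ± 0.28 (edgeR adjusted p = 0.355).

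**Figure D3:**
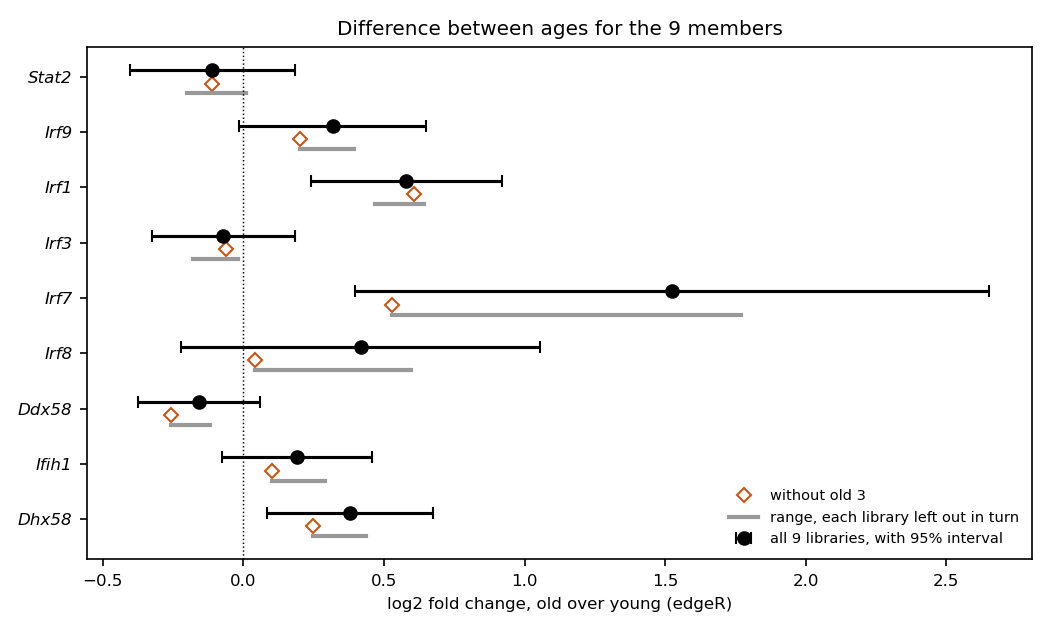
Log2 fold change of old over young for each member (horizontal axis) by edgeR, with its 95% interval in black. Open diamonds give the value without old 3, and grey bars the range when each library is left out in turn. Irf7 goes from 1.52 to 0.53 and Irf8 from 0.42 to 0.04 without old 3, while Irf1 stays between 0.47 and 0.64.

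Markers of the cells that make Irf8 were high in old 3 as well. The 13 Kupffer cell and macrophage markers found in the table summed to 240 to 513 CPM in young livers and to 112, 445, 990 and 519 CPM in old 1 to 4. Cd5l, a macrophage marker, was at 0 in every library, and Clec4f, which defines Kupffer cells in rodents, lay at 236 CPM in old 3 and 29.1 in old 1. The 8 dendritic cell markers summed to 8.99 to 15.3 CPM at 6 months and 6.91 to 17.7 CPM at 24 months. Among the neutrophil genes, Mpo and Elane were at 0 in all young livers and at 30.4 and 6.42 CPM in old 3. Of the neutrophil and monocyte markers, Cd14 was lowest in old 3 and Ly6c was at 0 in every library. The others were highest in old 3. The 11 T cell markers summed to 16.6 to 30.3 CPM in young livers, 82.3 in old 3 and 22.4 to 35.5 in the other old livers. In old 3 most of this sum was Cd4, at 55.3 CPM, and Cd3e, at 16.5 CPM. Cd4 was the largest part in every library, at 11.9 to 25.6 CPM in young livers, and was lowest in old 1, at 8.61 CPM. The sum therefore mainly follows Cd4. Only 5 of the 11 were highest in old 3 (Cd4, Cd3e, Cd3g, Lat and Lck). Cd8a, for example, was at 2.45 CPM in old 3 and 4.02 CPM in old 1. The 11 natural killer cell markers summed to 6.37 to 11.02 CPM at 6 months and 13.7 to 34.0 CPM at 24 months, with no overlap. Ccl5 was the largest part of this sum in every library, with 4.54 CPM as its highest young value and 6.18 CPM as its lowest old value. Nkg7 and Gzmm were also without overlap, while all the other natural killer cell markers overlapped. Among these, Ncr1 was above every young liver in old 3 (0.738 CPM) but below every young liver in old 2 and old 4 (0.1726 and 0.2005 CPM). The 7 B cell markers other than Cd22 summed to 1.12 to 2.44 CPM at 6 months and 2.82 to 6.05 CPM at 24 months, while Cd79a was at 0 in 7 of the 9 libraries and at most 0.0575 CPM. Cd22 alone ran from 14.98 to 233 CPM over the libraries. The part of these cells in the levels of Irf7, Irf8, Irf9, Ifih1 and Dhx58 was not tested. The 7 hepatocyte markers summed to 164900 to 185700 CPM at 6 months and 198300 to 310200 CPM at 24 months. By these markers the labelled tissue was liver. Alb was the largest part of each sum, at 102200 to 110800 CPM at 6 months and 132600 to 220900 CPM at 24 months. Each of the other hepatocyte markers overlapped between the ages, with Hnf4a at 491 to 662 and 526 to 604 CPM.

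**Figure D4:**
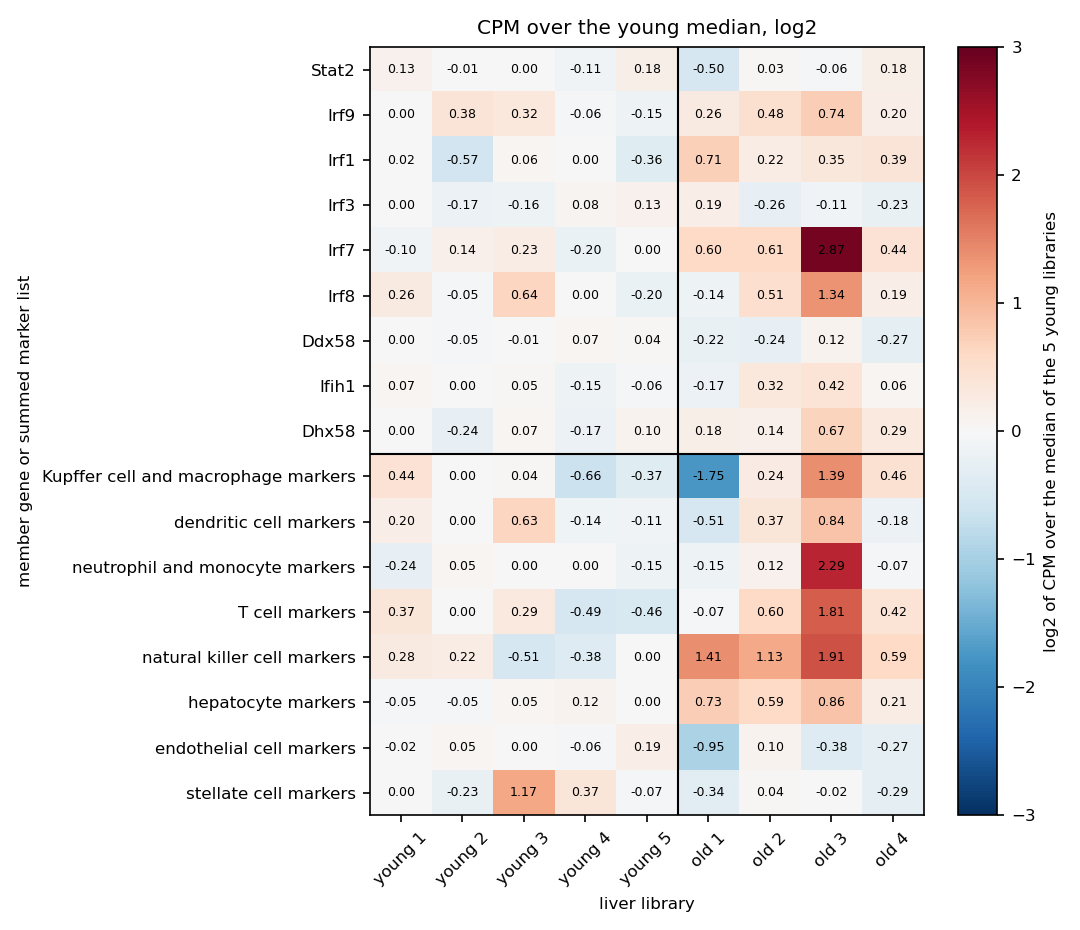
Log2 of each library's CPM over the median of the 5 young libraries, in colour and numbers, for the 9 members (upper block) and for summed cell type markers (lower block); columns are the libraries. Irf7, at 2.87, and Irf8, at 1.34, are highest in old 3, where Kupffer cell and macrophage markers stand at 1.39 and neutrophil and monocyte markers at 2.29.

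The members did not vary as 1 block. Of the 36 pairs of members, 8 had a Pearson correlation of log2 CPM above 0.7 over the 9 libraries, and 3 did without old 3. Irf7 had r = 0.87 with Dhx58, 0.81 with Irf8 and 0.80 with Irf9, and 0.67, 0.24 and 0.75 without old 3. Irf7 with Ddx58 went from 0.19 to -0.92 without old 3. These values describe libraries that share their scaling and the age difference, and the values over all 9 libraries also share old 3.

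Over 10666 other genes the closest profiles were sought for each member by the same measure over 9 libraries. For Irf7 they were the T cell receptor chain gene Cd3e, Unc13d and the oligoadenylate synthase-like gene Oasl (r = 0.98, 0.97 and 0.97), with 0.88, 0.83 and 0.90 without old 3. Candidates needed a mean of 1 CPM over the libraries, which Cd3e reached only through old 3, at 16.5 CPM there and 0.229 to 1.62 CPM in the others. For Irf8 they were Il10ra, Ptpro and Plscr2 (0.99, 0.98 and 0.98). The profiles nearest to Irf9 were Hs6st1, the interferon-induced protease gene Usp18 and the nucleotide kinase gene Cmpk2 (0.94, 0.93 and 0.93). Those nearest to Ifih1 were Arhgap25, Slc15a3 and Lacc1 (0.97 each), and to Dhx58 Gmfg, Hpcal1 and Bzw2 (0.97, 0.95 and 0.95). Irf1 lay nearest to Tomm40, Tmem110 and Manf (0.95, 0.95 and 0.94), and Stat2 to Golga4, Prpf8 and Birc6 (0.98, 0.97 and 0.97). Irf3 lay nearest to Zfp238, Lsm11 and Ctf1 (0.92 each), and Ddx58 to Atp6ap2, Plek and Slc52a2 (0.95, 0.94 and 0.93).

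The genes around the members were read from lists of the same pathway. For comparison with the list counts, edgeR called 0.657% of all genes higher and 0.344% lower at an adjusted p under 0.05. At an unadjusted p under 0.05 these shares were 8.94% and 6.96%. DESeq2 called 5.13% of all genes. Ranges did not overlap for 3.40% of all genes with old above and for 3.12% with old below. Ligands were at the limit of the counts: Ifnb1 and Ifnl3 had 0 counts in all 9 libraries and Ifng at most 0.0575 CPM, where a count of 0 allows 0.111 to 0.173 CPM in the 8 libraries other than old 1. No limit is given for old 1, since its counts were all even. Of the 5 receptor genes tested, 0 passed edgeR's test, 0 were under an unadjusted p of 0.05 and 0 passed by DESeq2; their median was -0.16 on the log2 scale. The type I receptor chains Ifnar1 and Ifnar2 both lay there, at -0.16 ± 0.09 and -0.16 ± 0.10 (SE; edgeR adjusted p = 0.406 and 0.441).

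Among 10 kinases of the JAK family and other STAT genes, 0 passed by edgeR, 3 were higher at an unadjusted p under 0.05 and 2 passed by DESeq2. Stat3, which answers interleukin-6, was nearest to the threshold. It lay at 111.5, 90.4, 79.7, 76.3 and 83.4 CPM in young and at 113, 157, 173 and 140.4 CPM in old livers, without overlap (log2 0.72 ± 0.15, edgeR adjusted p = 0.0522, DESeq2 adjusted p = 0.000538). Jak3, a kinase of lymphocyte cytokine receptors, had means of 11.7 ± 1.46 and 17.2 ± 2.85 CPM (edgeR adjusted p = 0.0964). Of the 10 genes, 2 had no overlap with old above, beside 3.40% of all genes.

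Of 7 other IRF genes and IRF2 binding proteins, 0 passed by edgeR or DESeq2 and 0 had an unadjusted p under 0.05. The smallest p-values were those of the corepressor gene Irf2bp1, at log2 0.25 ± 0.12, and of the lymphocyte factor Irf4, at 0.85 ± 0.45 with 0.148 to 1.154 CPM (edgeR adjusted p = 0.363 and 0.388). Irf5, made in myeloid cells, reached 5.45 CPM in old 3 and 1.17 to 2.76 CPM in the others.

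Of 20 adaptors and kinases between the sensors and the factors, 0 passed by edgeR, 1 was higher and 3 were lower at an unadjusted p under 0.05, and 1 passed by DESeq2. The endosomal RNA receptor Tlr3 had means of 17.0 ± 3.27 and 25.7 ± 3.72 CPM, with old 2 at 21.1, just under young 3 at 21.2 (log2 0.60 ± 0.16, edgeR adjusted p = 0.104, DESeq2 adjusted p = 0.0171). The adaptor gene Tradd lay at -0.48 ± 0.17 (edgeR adjusted p = 0.205). Mavs, the mitochondrial adaptor that both RIG-I and MDA5 use, had 24.2 to 29.5 CPM in the young and 24.6 to 33.3 CPM in the old group (edgeR adjusted p = 0.483). Tbk1, the kinase of IRF3 and IRF7, ranged over 22.1 to 25.5 CPM at 6 months and 18.9 to 21.8 CPM at 24 months, without overlap (log2 -0.19 ± 0.08, edgeR adjusted p = 0.293). It was the only 1 of the 20 without overlap, beside 3.12% of all genes with old below. Mavs, Tbk1 and Irf5 were named after their values were seen.

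Of 10 other RNA helicases 0 passed by edgeR or DESeq2 and 0 had an unadjusted p under 0.05. Their median was -0.09, and -0.17 without old 3. Dhx36 lay at -0.18 ± 0.10 and Ddx41 at -0.23 ± 0.15 (edgeR adjusted p = 0.39 and 0.461). Of 16 negative regulators 0 passed by edgeR or DESeq2. At an unadjusted p under 0.05, 2 of them were higher, beside 8.94% of all genes. The phosphatase gene Ptpn6, alone of the 16 without overlap between the ages, lay at 24.1 ± 1.08 and 28.6 ± 2.67 CPM. The other was Usp18, which reached 21.8 CPM in old 3 (edgeR adjusted p = 0.21 for Ptpn6 and 0.301 for Usp18). Without old 3 their log2 fold changes were 0.18 and 0.39 (edgeR unadjusted p = 0.05995 and 0.2366).

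Targets of ISGF3 held the passing genes. Of 33 tested, 3 rose and 0 fell by edgeR, 16 were higher and 1 lower at an unadjusted p under 0.05, and DESeq2 called 11 higher. Their median log2 fold change was 0.79 with all libraries and 0.27 without old 3, and 22 of the 33 were then above 0, against 30 with it. Rtp4, a chaperone of receptor transport, rose by 1.75 ± 0.13, the ubiquitin-like modifier Isg15 by 1.35 ± 0.25 and the antiviral synthase Oas1b by 1.06 ± 0.21 (edgeR adjusted p = 0.000278, 0.0422 and 0.0451). Rtp4 was at 48.0 CPM in old 3, inside the 42.6 to 58.4 CPM of the other old livers; Irf7 in that library was at 76.0 CPM, against 14.1 to 15.9 CPM in them. Without old 3 the adjusted p of edgeR was 0.00132 for Rtp4, 0.0465 for Isg15 and 0.0762 for Oas1b. When 1 library was left out, Isg15 kept its call only without old 3 or without old 4, and Oas1b only without old 2.

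Of 21 targets of IRF1 and interferon gamma, 0 passed by edgeR, 5 were higher at an unadjusted p under 0.05 and 3 passed by DESeq2, with a median of 0.23. Without old 3 the median was 0.15, and 15 of the 21 were above 0, against 19 with it. The immunity GTPase gene Irgm ranged over 15.7 to 23.9 CPM at 6 months and 26.1 to 55.3 CPM at 24 months, and the tryptophan tRNA ligase gene Wars at 15.9 to 20.2 and 21.8 to 26.4 CPM. Neither overlapped between the ages (log2 0.96 ± 0.22 and 0.40 ± 0.10, edgeR adjusted p = 0.0718 and 0.0968). Of the 21, 3 had no overlap with old above, beside 3.40% of all genes. The chemokine gene Cxcl10, a target of IRF3 and of interferon gamma, ranged over 1.44 to 6.66 CPM at 6 months and 1.71 to 2.47 CPM at 24 months (edgeR adjusted p = 0.521). Cxcl10 too was chosen after its values were seen.

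**Figure D5:**
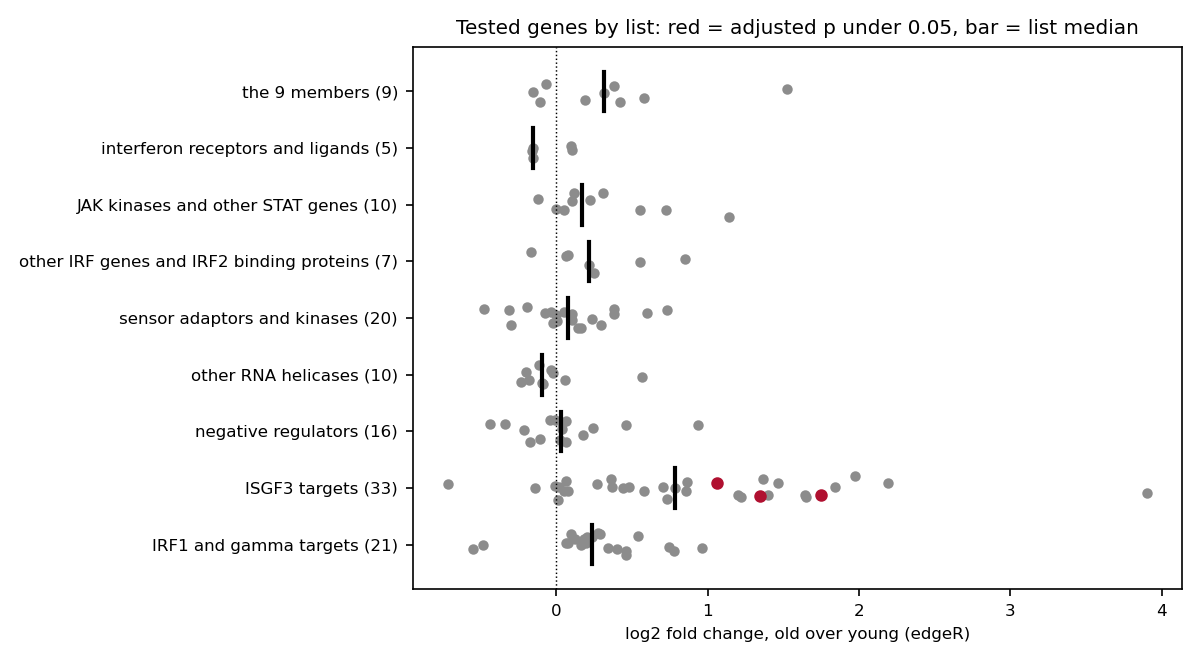
Log2 fold change of old over young by edgeR (horizontal axis) for every tested gene of each list (rows, with the number tested); the vertical bar is the list median and red points have an adjusted p under 0.05. The red points are Rtp4, Isg15 and Oas1b, and the members' median lies at 0.32 against 0.79 for the targets of ISGF3.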

How the data were processed

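Gene counts of 9 rat liver libraries were deposited by the authors as whole-number counts per gene symbol. The labels' protocols name RNeasy purification and a TruSeq version 2 kit, and the submitters' processing notes name BWA; the genome build, annotation and counting tool are not given in the sources used here. The counts were used as deposited, and rows were matched to RefSeq (GRCr8) by symbol, for 16431 of the 18071 genes with a count. Old 1 entered with its even counts. Genes were kept by filterByExpr (minimum count 10, total 15), scaled with TMM and tested by the robust quasi-likelihood test of edgeR 4.0.16 in R 4.3.3, old over young, with Benjamini-Hochberg adjustment over 12778 genes and a threshold of 0.05. DESeq2 1.42.0 and limma 3.58.1 (voom) were alternatives. Correlations used log2 CPM with a prior count of 2. The ratio of Irf7 to Irf3 was tested by an exact permutation test. Members, lists and tests were chosen with earlier results of these data known. From each list the genes past the threshold, at most 3, or else the 2 with the smallest p were named, and for each member the 3 nearest profiles where the mean reached 1 CPM. Intervals and limits of a count of 0 (3 counts) cover counting error or spread between libraries only.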

Additional observations from a re-analysis of the deposited data

Results flagged for a closer look

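Old 3 lay far from the other old livers for Irf7, at 76.0 CPM against 14.1 to 15.9 CPM. The same library gave 117 Irf7 counts per 100 Irf3 counts, against 19.6 to 27.0 in the other old livers. For Ddx58 it lay at 105.9 CPM against 81.0 to 83.7 CPM. Of 18 sets of values, 1 for each member in each age, these rules picked 2, where chance gives about 1 in 20. In old 3 the neutrophil and monocyte markers summed to 299 CPM, although Cd14 among them was lowest there. The part of these markers in the values above was not tested.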

How the results depend on the processing

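Over 19 of 20 alternatives, no member was called except Irf1 by DESeq2 (1 of 9), which gave no p-value for Irf7. The other alternative left out young 2 to 5 together, so that young 1 was the lone young library and the old livers alone gave the spread; edgeR then called 0 genes in all (429 had an unadjusted p under 0.05), which says nothing of stability. Over all genes, 128 passed in the fit as reported. This became 655 with DESeq2 (386 higher, 269 lower), 68 with limma-voom, and 280 with library totals only (72 higher, 208 lower), where the median of all genes shifted to -0.17. Leaving out 1 library in turn gave 30 (without young 4) to 201 (without old 2). With a replicate block there were 43 and 0 members. The 4 pairs with the same number had r = -0.10, 0.10, 0.31 and -0.17, and 3 of 8 libraries correlated best with their own number. So few pairs cannot decide whether the numbers pair the libraries. Direction turned for Stat2 without old 1 (0.010, with -0.20 to 0.010 over all single libraries left out) and for Irf3 without old 3 and old 4 together (0.00038); the cause was not tested. The Irf7 to Irf3 difference ranged from 0.61 to 1.47 when 1 library was left out. Of the 19 alternatives with more than 1 young library, the Rtp4 call held in 19, that of Isg15 in 10 and that of Oas1b in 6. Each member had at least 186 counts in each library.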
